A study of Mus musculus with 8 samples.

Results

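Cell-guidance ligands and receptors were followed in nephron progenitors, the mesenchymal cells of the developing kidney from which nephrons form. The members were taken by symbol from the deposited gene table. They were the semaphorins (Sema3 to Sema7) and their plexin receptors, the Eph receptors and their ephrin ligands, the Slit ligands and their Robo receptors, and the netrins and their Unc5 receptors. This rule gave 66 of the 24539 genes in the table: 20 semaphorins, 9 plexins, 14 Eph receptors, 8 ephrins, 3 Slits, 4 Robos, 4 Unc5 receptors and 4 netrins. The rule reads symbols and uses no measured value, although the families were chosen with earlier results of these data known. The cells were sorted from mouse kidneys at E18.5 on Six2GFPcre, which puts GFP and Cre into nephron progenitors under the control of Six2, and their polyadenylated RNA was sequenced. All 8 libraries carried Six2GFPcre, so Cre was present in the controls too. KO-labelled libraries were Smo c/c, with 2 conditional alleles of Smo, the transducer of Hedgehog signals at the membrane. Het-labelled libraries were Smo c/+ with 1 conditional allele, and WT-labelled libraries were Smo +/+. SmoM2-labelled libraries were Smo +/+ and carried Rosa26 SmoM2/+, from which Cre switches on SmoM2, an active form of Smo. Each group had 2 libraries. The labels do not say how many embryos went into a library or whether the libraries of a group came from separate embryos, so p-values measure the spread between these libraries, which may be technical.

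The level of Smo went against a label. Smo stood at 13.1 and 11.1 CPM (a gene's counts as a share of the library after scaling) in the KO-labelled libraries and at 14.4 and 23.9 in the Het-labelled ones. Under the WT label it stood at 363 and 375, and under the SmoM2 label at 605 and 629. The Het-labelled genotype keeps a wild-type allele, yet its Smo level was near that of the KO-labelled group, so groups are named by their labels throughout. The Hedgehog targets Gli1 and Ptch1 had CPM means of 30.9 and 161 under the WT label and 74.7 and 366 under the SmoM2 label. Gli1 was at 4.4 in the KO-labelled and 3.54 in the Het-labelled libraries. The progenitor markers Six2 (CPM means of 1232 to 1937 over the 4 groups) and Cited1 (96.0 to 439) were high in every group but not level. By the edgeR test described below, Cited1 was higher than under the WT label in KO- (log2 change 1.15, adjusted p = 0.00424) and Het-labelled libraries (1.57, adjusted p = 0.000845). Six2 was higher in Het-labelled ones (0.65, adjusted p = 0.00921). Of 10 progenitor markers, 4 were called higher and 0 lower in KO- than in WT-labelled libraries (11.6% and 11.4% of all tested genes). In Het- against WT-labelled ones 6 were higher and 1 lower (13.1% and 12.2%). Library totals ran from 4422305 counts (KO-labelled replicate 1) to 10305398 (WT-labelled replicate 1). Both KO-labelled libraries were male and both Het-labelled libraries female by Y-linked genes and Xist, while in the WT- and SmoM2-labelled groups replicate 1 was male and replicate 2 female. The difference between the KO- and Het-labelled groups and sex therefore cannot be told apart without the other groups.

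Some marker genes of other cell types, and genes linked to tissue dissociation, also differed between the groups. Markers of early nephron structures, such as Lhx1 and Jag1, summed to 1401 and 1726 CPM in the KO-labelled libraries against 489 to 802 in the other 6. Of the 9 tested, 7 passed as higher in KO- than in WT-labelled libraries, where 11.6% of all tested genes did. Immediate-early and heat-shock genes, which rise when tissue is dissociated, summed to 10305 and 10163 CPM under the Het label. The sums were 5910 and 7831 under the KO label, 3917 and 4193 under the WT label and 4327 and 6299 under the SmoM2 label. Of the 15 tested, 8 were called higher in KO- and 10 in Het- than in WT-labelled libraries, and 0 lower. Of all tested genes, 11.6% and 13.1% were called higher there. Not every member followed the sum. The heat-shock genes Hspa1a (4.14 to 7.28 CPM over all libraries) and Hspa1b, and Ier3 (5.88 to 9.34), overlapped between the Het- and WT-labelled libraries. Atf3 was lowest under the KO label (2.88 and 2.83). Stromal markers summed to 94.0 to 679 CPM and were uneven within groups, with 639 and 94.0 in the KO-labelled libraries. One of them, Foxd1, went with the groups, at 3.70 to 22.5 CPM in the KO- and Het-labelled and 171 to 385 in the WT- and SmoM2-labelled libraries, while Col1a1 (32.9 to 380) did not and Tbx18 stayed at or below 0.51. Ureteric bud markers summed to 55.0 and 65.0 CPM under the SmoM2 label against 21.8 to 34.9 in the other 6 libraries. Of the 4 tested, 2 were called lower in KO- and 2 in Het- than in WT-labelled libraries, and 1 higher in SmoM2- than in WT-labelled ones. Of all tested genes, 11.4%, 12.2% and 0.156% were called in these directions. Wnt11 was at 0.679 to 3.10 CPM under the KO and Het labels, 9.79 and 7.52 under the WT label and 24.1 and 34.2 under the SmoM2 label. The rise of the sum lay mostly in this gene. Hoxb7, the other abundant marker, was at 27.7 and 27.4 CPM under the SmoM2 label and at 19.9 to 26.1 in the other libraries. Ret and Krt19 stayed at or below 1.96 CPM, and Wnt9b at or below 0.116. Erythroid genes summed to 45.2 and 13.7 CPM in the KO-labelled and 24.9 and 19.9 in the Het-labelled libraries against 2.77 to 7.87 in the other 4. Of 4 tested, 3 were called higher in KO- than in WT-labelled libraries, beside 11.6% of all tested genes. In the contrast of the KO- and Het-labelled against the other groups 4 of 4 were called higher, beside 22.0%. Hba-a1 and Hba-a2 had the same count in every library, so the erythroid counts and sums hold 1 measurement under 2 symbols. Sums of podocyte markers (50.8 to 73.1) and endothelial markers (11.0 to 23.0) were low, with Nphs1 and Pecam1 each at or below 0.443 CPM in every library. Their part in the results below was not tested, apart from a fit that carried the stress genes as a covariate. In sorted bulk cells, fewer cells of a type and less RNA per cell cannot be told apart.

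Guidance cues were first described in growing axons, and the same proteins steer cell position, adhesion and branching elsewhere. Slits are secreted and bind Robo receptors. Semaphorins bind plexins, in the case of most secreted class 3 semaphorins together with neuropilins. Ephrins are tethered to the membrane and bind Eph tyrosine kinases on the next cell, with signals passing into both cells, and netrins bind Unc5 receptors, Dcc and neogenin. In the kidney, Slit2 and Robo2 are known for confining the expression of Gdnf, the signal that calls out the ureteric bud, so that loss of either in mice gives extra buds.

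Per kilobase of gene length, the scale on which genes can be compared, the order of levels in WT-labelled libraries was led by the ephrin Efnb1 (112 ± 11.4 CPM per kb, SD, n = 2 here and below), Sema3f (92.8 ± 3.21), the plexin Plxnb2 (86.1 ± 6.58), Sema4g (77.4 ± 7.0) and Robo2 (60.2 ± 6.07). Efnb1 stood above Sema3f, and Sema4g above Robo2, by more than the sum of their SDs, whereas Sema3f, Plxnb2 and Sema4g differed from their neighbours by less. Robo1 was 8th at 40.6 ± 5.04 and Slit2 9th at 38.9 ± 0.282, so that both partners of the Slit2 and Robo2 pair were among the more abundant guidance transcripts. In the KO-labelled libraries Sema3f was first (176 ± 35.1), ahead of Efnb1 (140 ± 10.6) by less than the sum of their SDs, and Robo2 had moved to 12th at 25.0. In SmoM2-labelled libraries Robo2 was 4th at 77.0 ± 3.84, after Efnb1 (99.9 ± 1.24), Plxnb2 (86.0) and Sema3f (81.3 ± 8.49). At the other end, 11 members were too low to test: Sema3e, Plxnb3, Epha3, Epha5, Epha6, Epha8, Epha10, Robo3, Robo4, Unc5a and Unc5d had at most 10 counts in any library. The other 55 members, 34 ligands and 21 receptors, were tested.

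The 3 Slits and the 2 tested Robos had lower values in the KO-labelled than in the WT-labelled libraries, and all 5 passed the test, although the calls of Slit1 and Slit2 were lost under some alternatives given with them below. Over all members, 17 of 55 were called in this comparison, 5 higher and 12 lower (edgeR quasi-likelihood test, adjusted p under 0.05), where 23.0% of all 13459 tested genes were called, 11.6% higher and 11.4% lower. The median log2 change was -0.13 over the tested members and 0.03 over all tested genes. The members are long genes (median 4667 bases, against 3016 for all tested genes), and with the length trend removed 7 were higher and 6 lower, while the calls over all genes went from 3100 to 2133. Without KO-labelled replicate 1 the count was 11 (1304 over all genes), and with the totals implied by the authors' RPKM values the split was 7 higher and 10 lower.

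In the Het-labelled against the WT-labelled libraries, 19 of 55 members were called, 13 higher and 6 lower, with 25.3% of all tested genes called (13.1% higher and 12.2% lower). The median over the members was 0.05 and over all genes -0.02. The count was 10 without either Het-labelled library (1468 and 1401 over all genes, against 3403) and 12 without WT-labelled replicate 2 (2089 over all genes), the split became 8 and 8 with GC and length trends removed, and it was 14 higher and 12 lower with no filter on low counts. With the stress genes as a covariate, edgeR called 0 members and 53 of all genes, so that this fit says little of the members, of which 14 had an unadjusted p under 0.05. In the SmoM2-labelled against WT-labelled libraries 2 members were called, Sema6a and Slit3, both higher, where 0.223% of all genes were called (0.156% higher and 0.0669% lower) and 13 members had an unadjusted p under 0.05. Their calls depended on single libraries, and the count by edgeR was 0 without WT-labelled replicate 1 or SmoM2-labelled replicate 1 (9 and 7 with an unadjusted p under 0.05), and 1 without either KO-labelled library or without SmoM2-labelled replicate 2. These 3 comparisons share the WT-labelled libraries.

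Between KO- and Het-labelled libraries, 11 of 55 members were called and all 11 were lower in the KO-labelled ones, where 9.43% of all genes were called, 4.33% higher and 5.10% lower. The median was -0.26 over the members and 0.02 over all genes. Robo2, Ephb2, Plxna1, Plxna2, Plxna3, Plxnb2, Ephb4, Sema4b, Sema4g, Sema6c and Efna2 made up the 11, so that 7 were receptors. This count was unsteady. It was 1 (Robo2) without Het-labelled replicate 1, where 36 of all genes were called in place of 1269. It was 7 without KO-labelled replicate 1 (376 of all genes), 6 without KO-labelled replicate 2 (551) and 6 without Het-labelled replicate 2 (365). With sex as a covariate, which coincides with these 2 groups, 6 members and 1117 of all genes were called. Robo2, Plxna1, Plxna2, Plxna3 and Sema4g were still lower, Epha4 was now higher (1.16, adjusted p = 0.0197), and Ephb2, Plxnb2, Ephb4, Sema4b, Sema6c and Efna2 missed the threshold, with adjusted p from 0.0563 to 0.27. With GC and length trends removed it was 4 (303 over all genes), of which 3 (Sema3b, Sema5a and Plxnb1) were higher and Robo2 was lower.

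A last contrast set the mean of the KO- and Het-labelled groups, which carry a conditional Smo allele and had little Smo RNA, against the mean of the WT- and SmoM2-labelled groups. It called 30 of 55 members, 15 higher and 15 lower, where 43.5% of all genes were called (22.0% higher and 21.5% lower). With length trends removed the split was 20 higher and 9 lower, and with GC and length 18 and 10. The test over all 4 groups called 34 members, with a background of 41.0%: all 3 Slits, both tested Robos, 7 of 8 plexins, 11 of 19 semaphorins, 5 of 9 Eph receptors, 5 of 8 ephrins, 1 of 2 Unc5 receptors and 0 of 4 netrins. The map of log2 changes shows each tested member in each comparison.

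**Figure D1:**
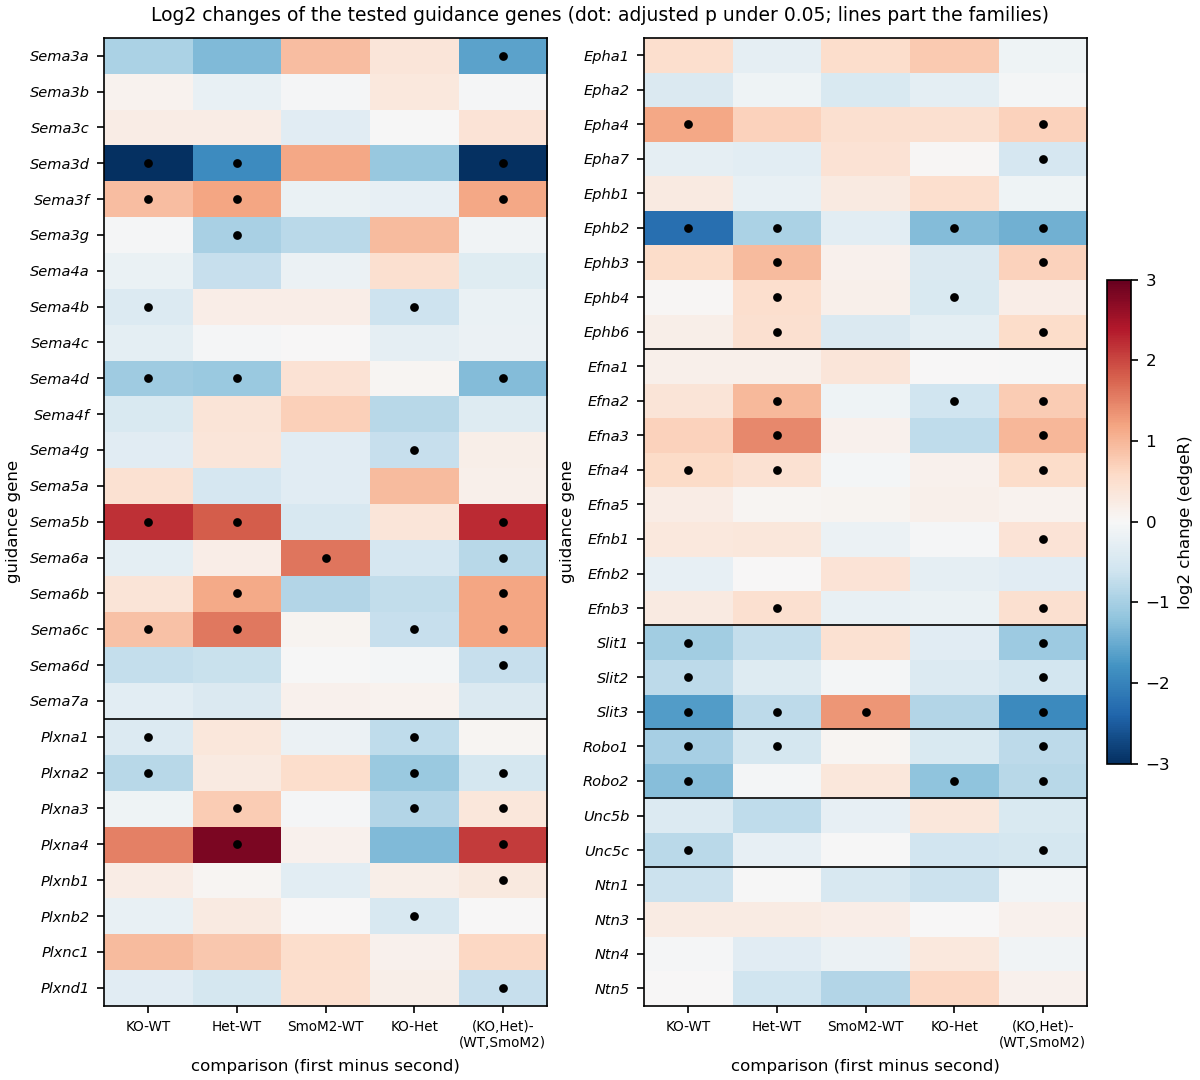
Log2 change (colour, edgeR) of the 55 tested guidance genes in 5 comparisons, with a dot where the adjusted p was under 0.05 and lines between families. The Slit and Robo rows are blue in the KO-WT column, with changes from -0.79 to -1.68, and the KO-Het column has dots on blue cells alone.

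Slit2 and Robo2 make up the pair known from the positioning of the ureteric bud, and both were lower in KO-labelled than in WT-labelled libraries. Their genes and those of the other Slits and Robos lie at chromosome 5, 47981291 to 48307735 (Slit2), chromosome 11, 35121456 to 35708507 (Slit3), chromosome 19, 41597824 to 41747275 (Slit1) and chromosome 16, 72027518 to 73047491 (Robo1) and 73891976 to 75447443 (Robo2), in GRCm38.p6 of RefSeq. Robo1 and Robo2 are thus neighbours. The 250 bases before a start of transcription are printed for Slit2, Slit3, Robo1 and Robo2, the members of this axis that RefSeq's table held and that were lower in KO-labelled libraries, because they are the sequences in which a Hedgehog effector motif would be looked for first. Each is written 5′ to 3′ on the strand of the gene, and capitals mark matches to CCACCC or its reverse complement GGGTGG, the core of the motif GACCACCCA of the Gli factors, through which Smo acts.

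Slit2, chr5:47982905-47983154, plus strand: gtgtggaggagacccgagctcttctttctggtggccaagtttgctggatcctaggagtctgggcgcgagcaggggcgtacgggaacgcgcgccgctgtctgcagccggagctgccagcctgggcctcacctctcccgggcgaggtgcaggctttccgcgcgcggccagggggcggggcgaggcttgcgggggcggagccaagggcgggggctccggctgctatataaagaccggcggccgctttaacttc

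Slit3, chr11:35121206-35121455, plus strand: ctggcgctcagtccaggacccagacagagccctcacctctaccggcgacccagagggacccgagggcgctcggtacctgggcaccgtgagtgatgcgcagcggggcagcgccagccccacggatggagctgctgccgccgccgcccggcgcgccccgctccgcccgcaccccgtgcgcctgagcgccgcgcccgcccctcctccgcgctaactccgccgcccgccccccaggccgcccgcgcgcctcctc

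Robo1, chr16:72662899-72663148, plus strand: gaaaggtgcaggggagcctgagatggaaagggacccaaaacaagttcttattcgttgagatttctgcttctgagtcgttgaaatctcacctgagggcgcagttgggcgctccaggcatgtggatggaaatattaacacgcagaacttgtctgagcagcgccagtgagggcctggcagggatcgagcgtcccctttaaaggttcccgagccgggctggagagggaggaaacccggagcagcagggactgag

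Robo2, the first start, chr16:75447294-75447543, minus strand: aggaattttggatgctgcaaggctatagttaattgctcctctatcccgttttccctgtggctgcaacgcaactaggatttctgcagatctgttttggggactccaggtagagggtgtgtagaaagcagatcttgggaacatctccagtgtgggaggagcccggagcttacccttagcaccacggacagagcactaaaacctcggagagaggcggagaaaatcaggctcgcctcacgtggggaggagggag

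Robo2, the second start, chr16:75092771-75093020, minus strand: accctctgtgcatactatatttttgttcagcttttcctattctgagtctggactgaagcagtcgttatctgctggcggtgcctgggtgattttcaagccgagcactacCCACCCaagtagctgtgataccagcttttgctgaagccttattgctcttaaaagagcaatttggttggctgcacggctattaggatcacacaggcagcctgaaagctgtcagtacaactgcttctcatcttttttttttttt

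Robo2, the third start, chr16:74411826-74412075, minus strand: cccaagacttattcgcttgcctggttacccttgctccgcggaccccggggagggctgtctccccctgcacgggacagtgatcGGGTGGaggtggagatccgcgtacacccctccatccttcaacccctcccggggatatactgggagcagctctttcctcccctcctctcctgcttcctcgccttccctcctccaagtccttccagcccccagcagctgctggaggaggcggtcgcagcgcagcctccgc

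The Slit2 and Slit3 windows were rich in CG dinucleotides, with 25 and 35, against a median of 6 over all 32851 RefSeq windows and 15 over the 73 windows of the 57 members with an entry. The Robo1 window held 11 and the Robo2 windows held 8, 4 and 14. The second and the third of the Robo2 windows each held 1 match to CCACCC, a sequence found on either strand in 28.1% of all windows and in 37 of the 73 windows of the members. The longer ACCACCC, which contains it, was in 2 of the members' windows (Sema6b and Unc5a) and in 3.92% of all windows. GACCACCCA, which contains both, was in 0 of 73 and in 0.225% of all windows. A match describes letters in a window, and its absence says nothing of binding there or elsewhere.

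Robo2, the Slit receptor of the nephrogenic mesenchyme, stood at 199 and 203 CPM under the KO label, 533 and 396 under the Het label, 450 and 519 under the WT label and 641 and 597 under the SmoM2 label. Both KO-labelled libraries lay below the other 6, and those of the Het-labelled group spanned the WT-labelled values from below and above. The log2 change was -1.27 (SE 0.15, adjusted p = 0.000426) against the WT-labelled and -1.21 (SE 0.15, adjusted p = 0.0046) against the Het-labelled libraries. Both calls held under every alternative that was run, with changes from -1.37 to -0.80 and from -1.43 to -0.95. Het minus WT gave -0.06 (adjusted p = 0.795) and SmoM2- against WT-labelled 0.35 (adjusted p = 0.619).

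Robo1, its neighbour and close relative, stood at 123 and 186 CPM under the KO label, 209 and 216 under the Het label, 334 and 280 under the WT label and 295 and 346 under the SmoM2 label. The Het-labelled values lay between the others without overlap. KO minus WT gave -0.99 (SE 0.18, adjusted p = 0.00336). The Het- against WT-labelled change of -0.53 (SE 0.18, adjusted p = 0.045) was lost in 8 of 19 alternatives. These were the fits without WT-labelled replicate 1 or either Het-labelled library (adjusted p from 0.14 to 0.193), with median-of-ratios scaling (0.0501 as adjusted p), with sex or the stress score as a covariate (adjusted p = 0.0756 and 0.156) and with the length or the GC and length trends removed (adjusted p = 0.0946 and 0.119).

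Slit2, the secreted ligand, stood at 174 and 275 CPM under the KO label, 292 and 306 under the Het label, 392 and 388 under the WT label and 347 and 398 under the SmoM2 label. The KO-labelled values differed between themselves and were both below the rest. The KO- against WT-labelled log2 change was -0.79 (SE 0.18, adjusted p = 0.0105). This call was lost in 3 of 20 alternatives. These were without KO-labelled replicate 1 (-0.51), and with the length trend (-0.34, adjusted p = 0.174) or GC and length trends removed.

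Slit3 had the widest spread of the ligands in this family. It stood at 7.53 and 8.06 CPM under the KO label, 15.0 and 13.9 under the Het label, 19.3 and 30.8 under the WT label and 61.1 and 64.4 under the SmoM2 label, and no group overlapped another. Between the KO- and WT-labelled libraries the fit gave -1.68 (SE 0.25, adjusted p = 0.00119), held under every alternative that was run, and Het- against WT-labelled gave -0.79 (SE 0.22, adjusted p = 0.0218). SmoM2- against WT-labelled gave 1.33 (SE 0.20, adjusted p = 0.035), a call that was lost in 7 of 20 alternatives. Among these were the fits without either KO-labelled library (adjusted p = 0.0555 and 0.0551), without WT-labelled replicate 1 (0.104 as adjusted p) and without either SmoM2-labelled library (adjusted p = 0.0936 and 0.175). The Het- against WT-labelled call was lost without WT-labelled replicate 2 (-0.44, adjusted p = 0.166) or either Het-labelled library (adjusted p = 0.0781 and 0.112).

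Slit1 stood at 56.0 and 89.0 CPM under the KO label, 76.3 and 107 under the Het label, 107 and 193 under the WT label and 189 and 220 under the SmoM2 label. The KO-labelled values were below both WT-labelled ones, while the lower WT-labelled value met the upper Het-labelled one. KO- against WT-labelled gave -1.05 (SE 0.28, adjusted p = 0.021), lost without KO-labelled replicate 1 (-0.75, adjusted p = 0.166) or WT-labelled replicate 2 (-0.59, adjusted p = 0.129). It was also lost with sex as a covariate (-0.73, adjusted p = 0.0663), with the length trend or GC and length trends removed (adjusted p = 0.062 and 0.0551) and with DESeq2 (adjusted p = 0.0507), 6 of 20 alternatives in all. The Het- against WT-labelled difference of -0.71 (adjusted p = 0.0766) passed with sex as a covariate (-0.93, adjusted p = 0.0188). The make-up of the summed Slit level per kb differed as well. Slit3 gave 5.09% and 3.50% of it in the KO-labelled and 14.8% and 13.6% in the SmoM2-labelled libraries, while Slit2 gave 58.8% and 59.6% against 41.8% and 42.1%.

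**Figure D2:**
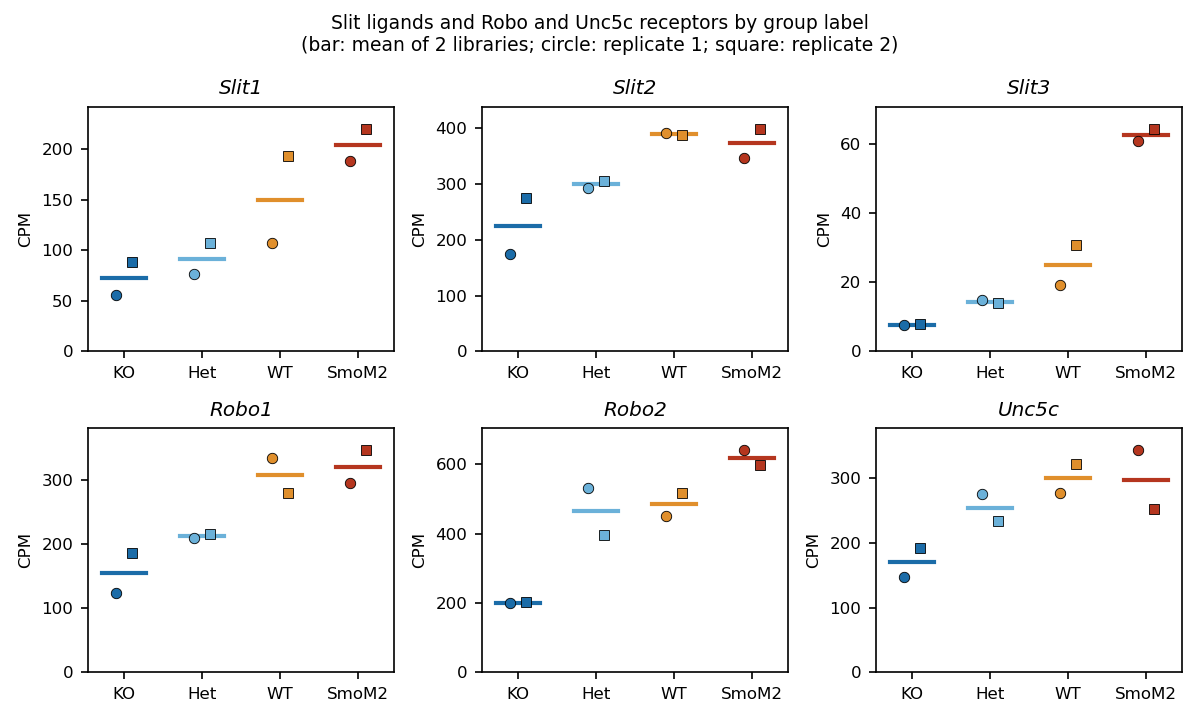
CPM of Slit1, Slit2, Slit3, Robo1, Robo2 and Unc5c by group label, with a circle for replicate 1, a square for replicate 2 and a bar for the mean of the 2. Robo2 is at 199 and 203 CPM in both KO-labelled libraries and between 396 and 641 in the other 6, and Slit3 runs from 7.53 in a KO-labelled to 64.4 in a SmoM2-labelled library.

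Of the 4 further genes listed here that are known to act with Slit2 and Robo2 on the position of the bud, 3 passed as lower in KO- than in WT-labelled libraries. Of all tested genes, 11.4% did. The 4 were chosen with earlier results of these data known, so their count is a description only. Foxc1, a transcription factor of the mesenchyme, had CPM means of 247 under the KO label, 444 under the Het label, 635 under the WT label and 818 under the SmoM2 label (KO- against WT-labelled -1.36, adjusted p = 0.000267). Gdnf, the secreted signal that Slit2 and Robo2 restrict, had means of 101, 170, 164 and 230 in the same order (-0.70, adjusted p = 0.0308). Ret, its receptor on the ureteric bud, was at 0.218, 0.473, 1.63 and 1.40, with 0 and 2 counts in the KO-labelled libraries (adjusted p = 0.0454), and no fold is given at so few counts. Eya1, which lies upstream of Gdnf, gave -0.21 (adjusted p = 0.334). Gdnf, Slit2 and Robo2 were lower together in these libraries.

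Of the netrin receptors, Unc5c stood at 148 and 192 CPM under the KO label, 275 and 233 under the Het label, 277 and 322 under the WT label and 343 and 252 under the SmoM2 label. Both KO-labelled values were the lowest of the 8. KO minus WT gave -0.81 (SE 0.18, adjusted p = 0.00866), lost in 4 of 20 alternatives. These were without KO-labelled replicate 1 (-0.64), with the stress score as a covariate, and with the length trend (-0.37, adjusted p = 0.0968) or GC and length trends removed. Unc5b, at means of 15.2 to 25.5 CPM, did not pass in any comparison. The netrins did not pass either, by edgeR or at an unadjusted p under 0.05, with changes against the WT-labelled libraries between -0.87 and 0.25. Ntn3 (30.5 to 36.2) and Ntn1 (14.2 to 22.2) had the higher CPM means, and Ntn4 and Ntn5 lay at 0.769 to 1.43.

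The semaphorins moved in both directions. In KO- against WT-labelled libraries 3 of 19 rose and 3 fell, beside 11.6% and 11.4% of all tested genes. In Het- against WT-labelled libraries 4 rose and 3 fell, beside 13.1% and 12.2%. Sema3d, Sema4d, Sema3f, Sema5b and Sema6c passed in both comparisons, which share the WT-labelled libraries, and each had the same sign in both. The summed semaphorin level per kb was 358 ± 42.0 under the KO label, 449 ± 21.9 under the Het label, 305 ± 13.6 under the WT label and 291 ± 11.7 under the SmoM2 label, and much of it was Sema3f.

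Sema3d, a secreted class 3 ligand, was the member with the widest range. It stood at 3.99 and 3.48 CPM under the KO label, 12.2 and 3.74 under the Het label, 24.9 and 36.1 under the WT label and 69.8 and 66.5 under the SmoM2 label. The KO- and Het-labelled values (16 to 91 counts) were all below the WT-labelled ones (267 and 331 counts), and the SmoM2-labelled values were above them. The KO- against WT-labelled log2 change was -3.02 (SE 0.43, adjusted p = 0.000978), held under every alternative that was run. The Het- against WT-labelled log2 change was -1.89 (SE 0.36, adjusted p = 0.00378). The SmoM2- against WT-labelled difference of 1.16 (SE 0.31) had an adjusted p of 0.227.

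Sema3f, another secreted class 3 ligand, ran the other way, with CPM means of 614 under the KO label, 731 under the Het label, 324 under the WT label and 283 under the SmoM2 label. It was higher than in the WT-labelled libraries by 0.92 (SE 0.15, adjusted p = 0.00233) and 1.18 (adjusted p = 0.000606). Sema5b, a transmembrane semaphorin, stood at 5.09 and 7.40 CPM under the KO label, 3.88 and 5.94 under the Het label, 1.12 and 1.63 under the WT label and 1.02 and 0.925 under the SmoM2 label. It was low throughout, and its KO- and Het-labelled values did not overlap the others. Between the KO- and WT-labelled libraries the fit gave 2.18 (SE 0.43, adjusted p = 0.00513) and Het- against WT-labelled 1.82 (SE 0.42, adjusted p = 0.0102). Both calls were lost with the stress score as a covariate. The Het- against WT-labelled call was also lost without WT-labelled replicate 1 (1.56) or Het-labelled replicate 2 (1.48).

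Among the class 6 semaphorins, which are transmembrane and can act as ligand or receptor, the members differed in which groups were high. Sema6a stood at 7.31 and 6.53 CPM under the KO label, 10.4 and 9.17 under the Het label, 8.95 and 8.06 under the WT label and 28.5 and 23.0 under the SmoM2 label. The SmoM2-labelled values were more than 2 times every other value. SmoM2- against WT-labelled gave 1.60 (SE 0.21, adjusted p = 0.0154), which missed the threshold without WT-labelled replicate 1 (adjusted p = 0.066) or SmoM2-labelled replicate 1 (adjusted p = 0.0936). KO- and Het-labelled libraries differed from WT-labelled ones by -0.30 and 0.21.

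Sema6b stood at 5.54 and 4.57 CPM under the KO label, 7.75 and 9.34 under the Het label, 3.45 and 4.36 under the WT label and 1.94 and 2.31 under the SmoM2 label. Between the Het- and WT-labelled libraries the fit gave 1.13 (SE 0.31, adjusted p = 0.0199). This call was lost in 7 of 19 alternatives, with changes from 0.71 to 1.28 over all of them. It was lost without WT-labelled replicate 1 (0.96) or either Het-labelled library, and with sex (0.98, adjusted p = 0.0537) or the stress score as a covariate. The other losses were with GC and length trends removed and with DESeq2. Sema6c rose in both comparisons, with means of 70.2, 113, 37.8 and 39.9 under the KO, Het, WT and SmoM2 labels, and its KO- and Het-labelled groups also differed by -0.68 (adjusted p = 0.0316).

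Sema4d, a transmembrane ligand of Plxnb1, fell in both, with means of 27.3, 26.5, 57.6 and 77.4 CPM under the KO, Het, WT and SmoM2 labels. The changes against the WT-labelled libraries were -1.07 (adjusted p = 0.000792) and -1.12 (adjusted p = 0.00051). Sema3g (-0.98, adjusted p = 0.0382) passed in Het- against WT-labelled libraries, Sema4b (-0.42, adjusted p = 0.0459) in KO- against WT-labelled ones, and Sema4b and Sema4g passed in KO- against Het-labelled ones (-0.63 and -0.70). Of the other 9 tested semaphorins, Sema3a and Sema6d passed in the contrast of the KO- and Het-labelled against the WT- and SmoM2-labelled groups (-1.60 and -0.69), at low levels in the case of Sema3a (2 to 42 counts). The rest, from Sema7a at means of 1.25 to 1.79 CPM to Sema4c at 184 to 229, passed neither in a comparison of 2 groups nor in that contrast.

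The plexins are the receptors of the semaphorins. In KO- against Het-labelled libraries 4 of 8 were lower (Plxna1, Plxna2, Plxna3 and Plxnb2), where 5.10% of all tested genes were called lower. The call of Plxnb2 was lost with sex as a covariate, at -0.41 and an adjusted p of 0.107. In the other comparisons the members went separate ways. Plxna4, which serves class 3 and class 6 semaphorins, stood at 52.7 and 61.4 CPM under the KO label, 148 and 137 under the Het label, 9.14 and 31.5 under the WT label and 9.10 and 35.1 under the SmoM2 label. In the WT- and SmoM2-labelled groups the male library had 9.14 and 9.10 and the female one 31.5 and 35.1. All KO- and Het-labelled values were above all of these. Het- against WT-labelled gave 2.83 (SE 0.53, adjusted p = 0.00372), and KO- against WT-labelled 1.51 (SE 0.54, adjusted p = 0.063).

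The Plxna4 values changed when the sex of the library was a covariate. Both KO-labelled libraries were male, and with sex as a covariate the KO- against WT-labelled change was 2.69 (SE 0.16, adjusted p = 2.96e-05). The KO- minus Het-labelled difference went from -1.32 (adjusted p = 0.116) to 0.54 (SE 0.19, adjusted p = 0.108), that is, across 0. With replicate number as a block, KO- against WT-labelled gave 1.65 (adjusted p = 0.0122) and KO- against Het-labelled -1.38 (adjusted p = 0.0348). With the stress genes as a covariate Het- against WT-labelled gave -0.52 in place of 2.83. Replicate number and sex coincide in the WT- and SmoM2-labelled groups and cannot be told apart there.

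Plxna2 stood at 11.1 and 11.3 CPM under the KO label, 27.7 and 20.7 under the Het label, 21.4 and 18.4 under the WT label and 31.3 and 25.9 under the SmoM2 label. Both KO-labelled values were below the other 6. KO- against Het-labelled gave -1.12 (SE 0.22, adjusted p = 0.0146) and KO- against WT-labelled -0.83 (SE 0.22, adjusted p = 0.0202). Both were lost with the length trend (-0.76 and -0.34) or GC and length trends removed and without either KO-labelled library. The first was also lost without Het-labelled replicate 1. The second was also lost without WT-labelled replicate 1 and with the stress score as a covariate.

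Plxna3, on chromosome X, stood at 97.9 and 88.4 CPM under the KO label, 166 and 178 under the Het label, 88.4 and 116 under the WT label and 103 and 96.7 under the SmoM2 label. The Het-labelled libraries alone stood apart. Het minus WT gave 0.75 (SE 0.14, adjusted p = 0.00386) and KO- against Het-labelled -0.88 (SE 0.15, adjusted p = 0.00807), the latter lost without Het-labelled replicate 1 (-0.94, adjusted p = 0.0782). The female WT- and SmoM2-labelled libraries, at 116 and 96.7, were below both Het-labelled ones. Plxna1, with means of 181, 306, 243 and 215 CPM, changed by -0.42 in KO- against WT-labelled (adjusted p = 0.0353) and by -0.76 in KO- against Het-labelled libraries (adjusted p = 0.00856). Plxnb2, the plexin with the highest level, had means of 493, 686, 573 and 573 and passed in the latter alone (-0.48, adjusted p = 0.0319).

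The remaining tested plexins were Plxnd1, Plxnc1 and Plxnb1. Plxnd1, the receptor that takes Sema3e without a neuropilin, stood at 43.8 and 59.0 CPM under the KO label, 38.2 and 53.0 under the Het label, 55.7 and 74.8 under the WT label and 78.7 and 106 under the SmoM2 label. Replicate 2 was the higher in each group, and the KO- and WT-labelled ranges overlapped. It passed in the contrast of conditional-allele against other groups (-0.68, SE 0.15, adjusted p = 0.00436) and in no pair of groups. With sex as a covariate it passed in Het- against WT-labelled libraries (-0.72, SE 0.19, adjusted p = 0.0196). Its partner Sema3e was too low to test. Plxnc1, the receptor of Sema7a, was low, at 2.66 and 5.88 CPM under the KO label, 2.81 and 5.10 under the Het label, 1.96 and 2.51 under the WT label and 3.27 and 3.12 under the SmoM2 label. The groups overlapped or nearly met, and the test over all 4 groups gave an adjusted p of 0.329. Plxnb1 had means from 236 to 344 CPM and passed in the conditional-allele contrast (0.29, adjusted p = 0.0207).

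**Figure D3:**
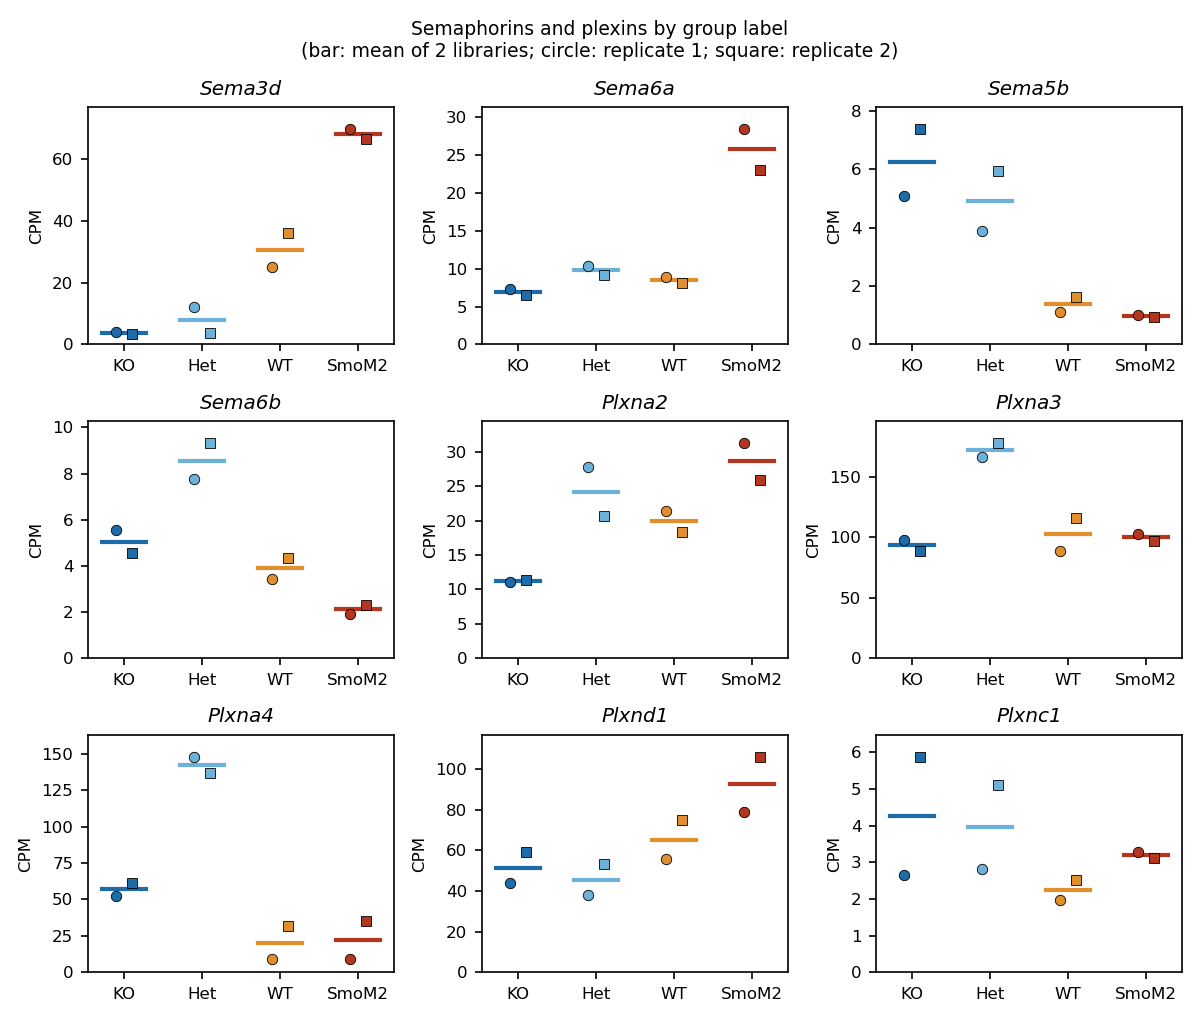
CPM of semaphorins and plexins by group label, with a circle for replicate 1, a square for replicate 2 and a bar for the mean of the 2. Sema3d and Sema6a are highest in the SmoM2-labelled libraries, Sema5b is at 3.88 CPM or more in the KO- and Het-labelled ones and at 1.63 or less in the others, and Plxna4 is split by replicate in the WT- and SmoM2-labelled groups.

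Among the Eph receptors, Ephb2 was the one with the largest change. It stood at 22.1 and 34.4 CPM under the KO label, 74.5 and 65.9 under the Het label, 111 and 161 under the WT label and 93.9 and 125 under the SmoM2 label. The KO-labelled values were lowest, the Het-labelled ones came next, and the WT- and SmoM2-labelled values overlapped. KO- against WT-labelled gave -2.26 (SE 0.24, adjusted p = 0.000209), held under every alternative that was run. The Het- against WT-labelled log2 change was -0.95 (SE 0.22, adjusted p = 0.00949), lost without WT-labelled replicate 2 (adjusted p = 0.0582) or Het-labelled replicate 2 (adjusted p = 0.0719). KO- against Het-labelled gave -1.31 (SE 0.24, adjusted p = 0.011), lost in 5 of 19 alternatives. It was lost with sex as a covariate (-0.84, adjusted p = 0.0563), which coincides with these 2 groups. The other losses were without KO-labelled replicate 1 or Het-labelled replicate 1, with the stress score as a covariate, and with GC and length trends removed.

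Epha4, a receptor that takes ephrins of both classes, rose instead. It stood at 62.0 and 87.7 CPM under the KO label, 53.3 and 54.5 under the Het label, 23.7 and 43.9 under the WT label and 38.5 and 54.5 under the SmoM2 label. The KO-labelled values were above the rest, and the Het- and SmoM2-labelled ones overlapped. KO minus WT gave 1.15 (SE 0.27, adjusted p = 0.0114), lost without KO-labelled replicate 2 (0.88, adjusted p = 0.0835) or WT-labelled replicate 1 (0.77, adjusted p = 0.0529) and with the stress genes as a covariate (0.37, adjusted p = 0.564).

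Ephb3 stood at 18.8 and 12.2 CPM under the KO label, 19.0 and 22.8 under the Het label, 11.8 and 9.48 under the WT label and 9.82 and 13.9 under the SmoM2 label, with Het- against WT-labelled at 0.96 (SE 0.26, adjusted p = 0.0196). This call was lost in 5 of 19 alternatives. These were without WT-labelled replicate 2 or either Het-labelled library, with the stress score as a covariate, and with GC and length trends removed. Ephb6, a member of the family without kinase activity, stood at 40.5 and 43.5, 48.5 and 54.5, 41.8 and 32.5, and 25.7 and 29.0 under the KO, Het, WT and SmoM2 labels. Its Het- against WT-labelled change of 0.47 (SE 0.16, adjusted p = 0.0474) was lost in 13 of 19 alternatives, among them those without WT-labelled replicate 2 (0.28, adjusted p = 0.313) or any single library of the KO-, Het- and SmoM2-labelled groups. Ephb4, at means of 207, 285, 201 and 223 CPM, was higher in Het- than in WT-labelled libraries by 0.50 (adjusted p = 0.00862) and lower in KO- than in Het-labelled ones (-0.46, adjusted p = 0.03, or 0.0784 with sex as a covariate). Of the other 4 tested Eph receptors, Epha7 passed in the conditional-allele contrast (-0.51, adjusted p = 0.0343), and Epha1, Epha2 and Ephb1 in none.

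The ephrins were called in 1 direction against the WT-labelled libraries. In Het- against WT-labelled libraries 4 of 8 rose and 0 fell (median change 0.40), where 13.1% of all tested genes rose and 12.2% fell. In KO- against WT-labelled ones Efna4 alone rose (median 0.30), where 11.6% of all tested genes rose and 11.4% fell. Summed ephrin level per kb was 281 ± 3.57 under the KO label, 301 ± 18.8 under the Het label, 224 ± 5.69 under the WT label and 217 ± 0.418 under the SmoM2 label, of which Efnb1 was the largest part. The genes of Efna1, Efna3 and Efna4 lie together on chromosome 3 (89271730 to 89338028, GRCm38.p6).

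Efna4, a ligand anchored by lipid, stood at 76.4 and 64.0 CPM under the KO label, 62.6 and 66.9 under the Het label, 46.7 and 47.5 under the WT label and 43.1 and 47.4 under the SmoM2 label. The KO- and Het-labelled values did not overlap the others. The KO- against WT-labelled log2 change was 0.58 (SE 0.13, adjusted p = 0.0117) and Het- against WT-labelled 0.46 (SE 0.13, adjusted p = 0.0259). The first was lost in 6 of 20 alternatives. These were without KO-labelled replicate 1 (0.44) or either WT-labelled library, with the stress score as a covariate, and with the length or GC and length trends removed. The second was lost in 7 of 19. These were without any single library of its 2 groups, with sex (0.42, adjusted p = 0.0553) or the stress score as a covariate, and with GC and length trends removed. Efna3, its neighbour in the genome, stood at 7.75 and 10.2, 15.6 and 14.8, 6.62 and 4.47, and 5.42 and 6.82 under the KO, Het, WT and SmoM2 labels, with the Het-labelled values highest (Het- against WT-labelled 1.45, SE 0.27, adjusted p = 0.00386). Efna1, the third gene of the cluster, passed in no comparison (means 39.2 to 50.2 CPM).

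Efna2 stood at 52.3 and 38.5 CPM under the KO label, 69.6 and 68.3 under the Het label, 31.2 and 38.6 under the WT label and 30.7 and 32.5 under the SmoM2 label, with Het- against WT-labelled at 0.98 (SE 0.16, adjusted p = 0.00188). KO- against Het-labelled gave -0.60 (SE 0.17, adjusted p = 0.044), lost in 9 of 19 alternatives. It was lost without KO-labelled replicate 2 (-0.41), without either Het-labelled or without either SmoM2-labelled library. The other losses were with sex (-0.41, adjusted p = 0.27) or the stress score as a covariate, with the RPKM-implied totals, and with GC and length trends removed. Efnb3, a transmembrane ligand, stood at 90.8 and 77.1, 93.0 and 98.5, 74.6 and 63.2, and 64.3 and 54.1 CPM under the KO, Het, WT and SmoM2 labels. Between the Het- and WT-labelled libraries the fit gave 0.47 (SE 0.14, adjusted p = 0.0319), lost in 5 of 19 alternatives. These were without WT-labelled replicate 2 (0.34) or either Het-labelled library, with the stress score as a covariate, and with GC and length trends removed. Efnb1, on chromosome X, had means of 469, 480, 377 and 335 CPM and passed in the conditional-allele contrast (0.41, adjusted p = 0.00352). Efna5 and Efnb2 passed in none.

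**Figure D4:**
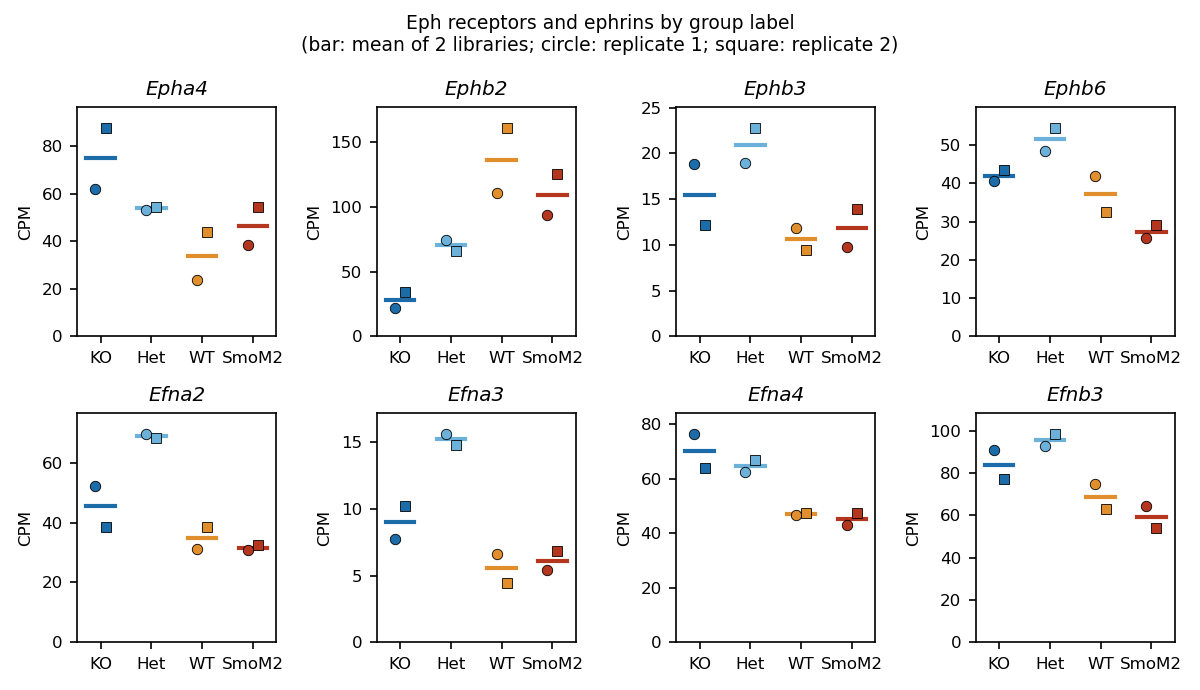
CPM of Eph receptors and ephrins by group label, with a circle for replicate 1, a square for replicate 2 and a bar for the mean of the 2. Ephb2 falls from between 93.9 and 161 CPM in the WT- and SmoM2-labelled libraries to 22.1 and 34.4 in the KO-labelled ones, and Efna2 and Efna3 are highest in the Het-labelled libraries.

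The genes that work beside these receptors were followed as well. Of 16 tested co-receptors and partners, 0 were higher and 3 lower in KO- than in WT-labelled libraries, where 23.0% of all genes were called: the netrin receptor Neo1 (-0.73, adjusted p = 0.00311) and the Unc5 ligands Flrt1 (-1.0, adjusted p = 0.0017) and Flrt3 (-1.44, adjusted p = 0.00226). In Het- against WT-labelled libraries 2 were higher (Rgma and Gpc1, 0.62 and 0.66) and 2 lower (Flrt3, -1.02, and Ntng1, which had few counts), with 25.3% of all genes called. In KO- against Het-labelled libraries 4 were lower, the neuropilin Nrp1 (-0.79), Flrt1 (-0.73), Rgma (-0.73) and Gpc1 (-0.49), with 9.43% of all genes called. In SmoM2- against WT-labelled libraries 1 passed, Rgma, a ligand of Neo1 (0.96, adjusted p = 0.0423). Of all tested genes, 0.223% were called there, 0.156% higher and 0.0669% lower. Calls of these partner genes were not followed through the alternatives. A fit of the SmoM2- and WT-labelled libraries alone called 8 of all genes in place of 30. Of 36 intracellular effectors, such as the kinases and exchange factors that link the receptors to actin, 3 rose and 6 fell in KO- against WT-labelled libraries and 9 rose and 4 fell in Het- against WT-labelled ones, beside the same 23.0% and 25.3% of all genes.

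By family, the summed levels per kb of Slits, Robos, Unc5 receptors, plexins and Eph receptors had their lowest mean in the KO-labelled libraries, where those of semaphorins and ephrins were above the WT-labelled level. Slit sums were 37.8 ± 11.7 under the KO label, 50.3 ± 5.06 under the Het label, 72.6 ± 13.0 under the WT label and 88.8 ± 8.23 under the SmoM2 label, and Robo sums were 45.5 ± 6.17, 85.9 ± 11.2, 101 ± 1.03 and 119 ± 0.886 in that order. Unc5 sums were 21.7 ± 3.83, 29.9 ± 1.87, 36.6 ± 5.14 and 35.7 ± 7.09, with both KO-labelled libraries below the other 6. Eph receptor sums were 109 ± 14.7, 136 ± 5.45, 118 ± 1.12 and 111 ± 9.83, and their KO-, WT- and SmoM2-labelled values overlapped. Plexin sums were highest in the Het-labelled libraries, at 218 ± 10.5, against 161 ± 6.33 to 175 ± 10.5 in the others, and netrin sums stayed between 10.8 and 12.1. The Het-labelled libraries were also those with the highest sums of stress genes, and the KO-labelled ones those with the highest sums of early nephron markers, as given above.

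**Figure D5:**
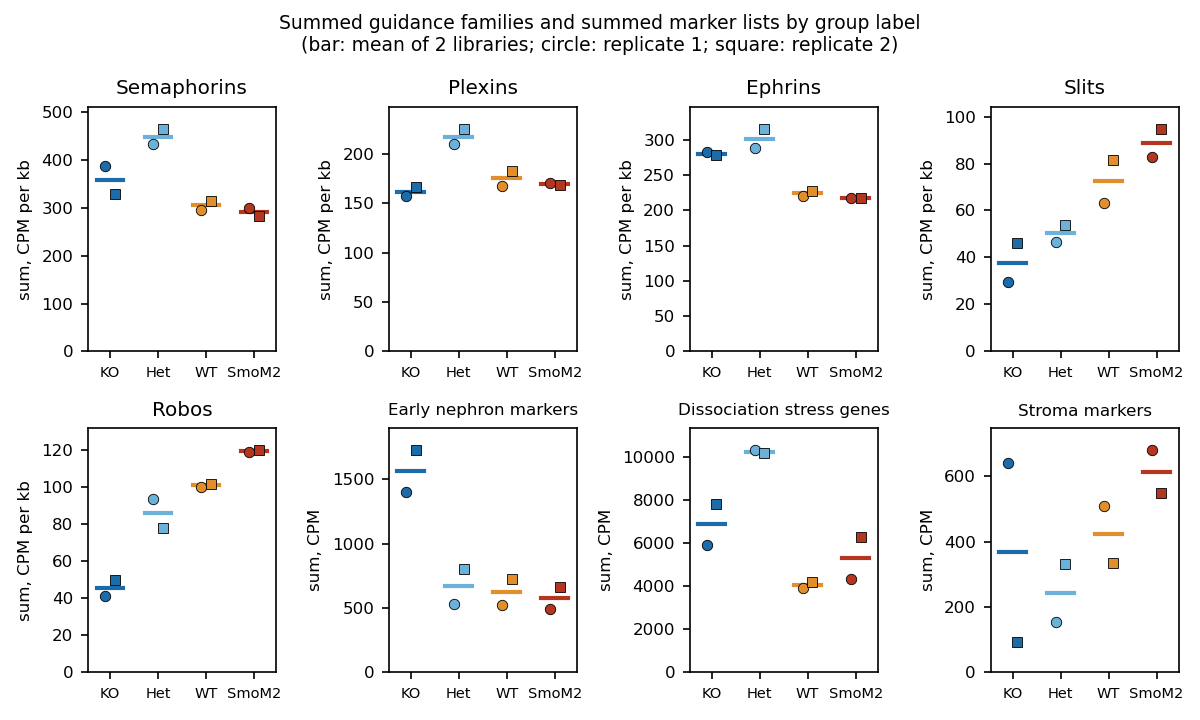
Summed levels of the guidance families (CPM per kb of gene length) and of the marker lists (CPM) in each library by group label. Slit and Robo sums are lowest in the KO-labelled libraries, early nephron marker sums are highest there, and stress gene sums are highest in the Het-labelled ones.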

How the data were processed

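The 8 libraries of sorted nephron progenitors were used with the groups and replicate numbers of their labels. The authors' table, per the file headers, gives raw read counts per gene, RPKM values and a gene length. STAR, Subread, featureCounts and mm10 are named in the submitters' processing notes, and the annotation and strand setting are not given in the sources used here, so overlapping and antisense genes cannot be told apart. The deposited RPKM values served as an alternative scaling.

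Counts were fitted with edgeR 4.0.16 in R 4.3.3 (filterByExpr, which left 13459 genes, trimmed mean of M values scaling, 1 quasi-likelihood model over 4 groups, 4 residual degrees of freedom), with two-sided tests, Benjamini-Hochberg adjustment over all tested genes and a threshold of 0.05. Log2 changes are the fitted ones, and their SE is the one the statistic implies. The biological coefficient of variation was 13.5%. With 2 libraries against 2 an exact permutation test cannot go below p = 0.333, so none was run. The fit was tested on simulated data first. Alternatives were DESeq2 1.42.0, other scalings, filters, covariates, trends of gene length and GC content, and fits that left out libraries.

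The members and lists were chosen with earlier results of these data known. Values of every library are given for Slit2, Robo2, Plxnc1 and Plxnd1 and, per family, for up to 4 members that passed over the 4 groups with the largest range of group means. Library sex was read from Y-linked genes and Xist, and the stress score was the mean log2 CPM of a stress gene list. Other marker lists were nephron progenitor, immune (13.9 to 46.9 CPM in sum) and neural genes (4.85 to 11.9). Progenitor markers summed to 3151 to 5175 CPM. Promoters and positions came from RefSeq (GRCm38.p6, the same build as mm10).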

Additional observations from a re-analysis of the deposited data

How the results depend on the processing

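The 2 libraries per group and 4 residual degrees of freedom limit what could be called, and single libraries decided many calls. Counts over all tested genes follow in brackets. With the stress score as a covariate, 9 members (562) were called in KO- against WT-labelled, 0 (53) in Het- against WT-labelled (14 with an unadjusted p under 0.05, 19 called with DESeq2 without the covariate), 1 (8) in SmoM2- against WT-labelled, 5 (433) in KO- against Het-labelled libraries and 11 (1162) in the conditional-allele contrast, against 17 (3100), 19 (3403), 2 (30), 11 (1269) and 30 (5850) without it; Plxna4 in Het- against WT-labelled turned to -0.52 and Epha4 in the conditional-allele contrast to -0.17. With no filter on low counts, 4 (356) were called in SmoM2- against WT-labelled and 20 (2217) in KO- against Het-labelled libraries. KO- against Het-labelled gave 6 (1117) with sex as a covariate, 7 (607) with the gene length trend removed and 4 (303) with GC and length trends removed, the last chosen after seeing the data. A fit of the SmoM2- and WT-labelled libraries alone called 0 members and 8 genes in all (14 members with an unadjusted p under 0.05). The cause of these changes was not tested.

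Leaving out single libraries gave 11 to 18 members in KO- against WT-labelled, 10 to 19 in Het- against WT-labelled, 0 to 3 in SmoM2- against WT-labelled, 1 to 15 in KO- against Het-labelled, 26 to 29 in the conditional-allele contrast and 25 to 37 over the 4 groups. Where this left 1 library in a group, it was assumed to vary like the others. Same-numbered libraries did not deviate together in every pair of groups. Correlations of deviations ran from -0.103 for KO and Het to 0.407 for WT and SmoM2 over 9850 genes. The main fit did not pair libraries by number. In the WT- and SmoM2-labelled groups replicate number and sex coincide, so a pairing there cannot be told apart from sex. With the replicate block the counts were 18, 23, 2, 14, 30 and 35 in the order above, against 17, 19, 2, 11, 30 and 34 without it. The fit of compared groups alone was not run for the contrast and the 4-group test, which use all libraries.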
